A study of Mus musculus with 6 samples.

Results

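C-type lectins are cell surface or soluble proteins that share a fold first found in sugar-binding receptors. The 10 genes described here, Clec2h, Clec2d, Clec4a2, Clec4d, Clec4e, Clec4f, Clec4g, Clec4n, Clec7a and Clec12a, were measured in mouse liver after treatment with trichloroethylene (TCE), an industrial solvent that the liver metabolises. Every probe that was not a control and carried one of these gene symbols in the deposited annotation was taken, which gave 10 probes for 10 of the 24239 gene symbols on the array. The set was chosen for its names, but Clec2h was selected on its measured fall between control and TCE mice in these same arrays, so its difference is given as a description without a test. The arrays measured total liver RNA of male B6C3F1 mice of 7 weeks of age, with 1 array per mouse and no pooling. The 3 control mice received corn oil by gavage. The 3 TCE mice received TCE at a dose of 1000 mg/kg b.w. in the same oil, daily for 5 days. No other allele, transgene or agent is given for either group. All mice of both groups had therefore received the oil, and the livers were taken shortly after the last dose.

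The 10 genes fall into 4 roles. Clec2h (Clr-f) and Clec2d (Clr-b) belong to the Clec2 family, which are ligands for the Klrb1 (NKR-P1) receptors of natural killer cells and some T cells. Clec7a (Dectin-1), Clec4n (Dectin-2), Clec4e (Mincle) and Clec4d (MCL) are receptors of myeloid cells for fungal and bacterial glycans and glycolipids, and they signal through Syk and Card9, directly or through the adaptor Fcer1g. Clec4a2 (DCIR) and Clec12a (MICL) are inhibitory receptors of myeloid cells. Clec4f is a galactose-binding receptor of Kupffer cells, the resident macrophages of the liver, and Clec4g (LSECtin) is a receptor of the endothelium that lines the liver sinusoids.

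Values are quantile-normalized log2 signals of a probe, and they are compared only between mice for the same probe. A probe was called detected when every array of 1 group or of both showed it well above background, which held for 22731 of 55681 probes and for 13284 genes. Each array had between 23538 and 24968 probes well above background, and no spot was saturated. The lowest log2 signal among probes well above background was between 4.54 and 5.02 per array. The array of control mouse 1 was on slide 1 alone and the other 5 arrays were on slide 2. The threshold for a change was a fold change of 2 or more with a limma p, adjusted after Benjamini and Hochberg, of at most 0.05, and 1.41% of detected probes were past it, 1.03% higher and 0.383% lower in TCE mice. A further part of the probes had an adjusted p within the threshold at a smaller fold, which brings the share to 2.01%. The 2 groups did not overlap in 25.7% of detected probes, with TCE mice higher in 15.5% and lower in 10.2%.

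Of the 10 genes, 6 were detected, namely Clec2h, Clec2d, Clec4f, Clec4g, Clec4n and Clec7a. Clec2h is given no call, since its value chose the set. Of the other 5, 0 were past the threshold in limma and 1, Clec4n, had an unadjusted p below 0.05, which 19.1% of detected genes had. The median log2 difference of the 6 detected genes was -0.12, with 5 lower and 1 higher in TCE mice. Clec2h is 1 of the 5 lower genes, and its direction was fixed by the choice, so this count is a description only. The median was -0.047 without TCE mouse 1 and -0.19 without control mouse 3. This stands beside a median of 0.02 over all detected genes, of which 53.1% were higher and 1.73% were past the threshold. The groups did not overlap for Clec2h, where TCE mice were lower, and for Clec4n, where TCE mice were higher. Over all detected probes they did not overlap in 25.7%, with TCE mice higher in 15.5% and lower in 10.2%.

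**Figure D1:**
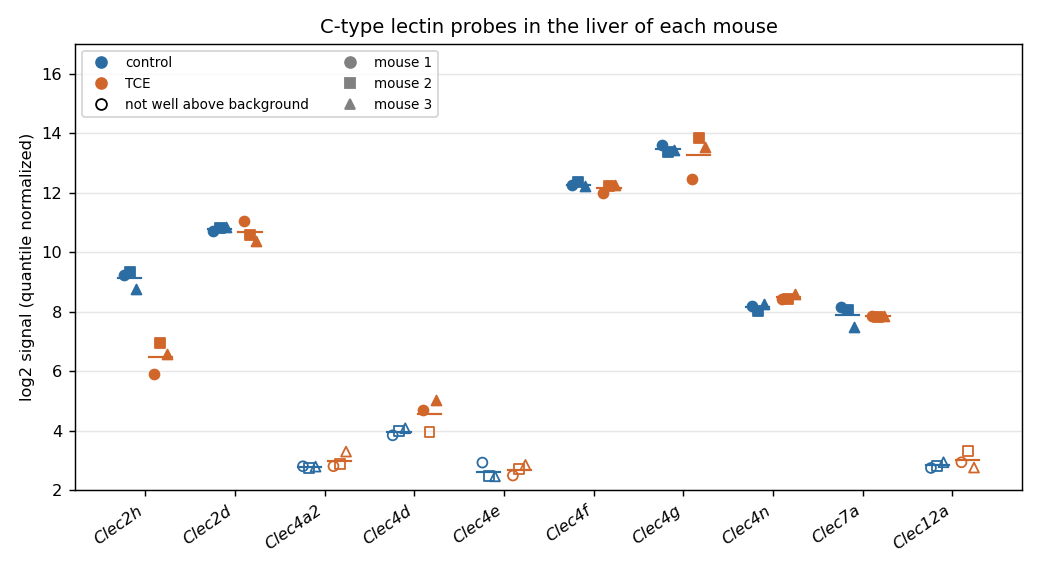
Quantile-normalized log2 signal (vertical axis) of the probe of each of the 10 genes in each of the 6 mice, with control mice in blue, TCE mice in orange, lines at the group means and open symbols where the probe was not well above background. The Clec2h values of the TCE mice, 5.89 to 6.95, lie below all control values, 8.77 to 9.35, while the other detected genes differ by at most 0.31 between the group means.

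Clec2h, a Clec2 family member known from intestinal epithelium, kidney and liver, was lower in every TCE mouse. Its log2 signal was 9.25, 9.35 and 8.77 in control mice 1, 2 and 3 and 5.89, 6.95 and 6.58 in TCE mice 1, 2 and 3. The groups did not overlap, and the lowest control value was above the highest TCE value. Control mice had a mean of 9.12 ± 0.31 (SD, n = 3), and TCE mice one of 6.48 ± 0.54 (SD, n = 3). The log2 difference was -2.65 with a standard error of 0.30. This is a signal 6.26-fold higher in control mice. Before normalization the processed intensities were 671, 561 and 348 in control mice and 69.8, 105 and 117 in TCE mice, and the probe was well above background on all 6 arrays. By size the fall was the 12th largest among detected probes, of which 536 fell 2-fold or more. Probes on either side of Clec2h in that order had differences of -2.68, for a probe without a gene symbol, and -2.65, for Gm4477. Within slide 2, which leaves out control mouse 1, the log2 difference of Clec2h was -2.58. With normexp background correction in place of the array software's own it was -1.96.

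Clec2d, the second Clec2 ligand of the set, encodes the broadly expressed ligand of the inhibitory receptor Klrb1b. Its log2 signal was 10.72, 10.82 and 10.84 in control mice and 11.05, 10.58 and 10.39 in TCE mice. TCE mouse 1 was the highest of the 6 and TCE mice 2 and 3 were the lowest, so the groups overlapped. The log2 difference was -0.12 (95% confidence interval -0.56 to 0.33, limma adjusted p = 0.782).

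In a list of other Clec2 genes and Klrb1 receptors, 9 of 10 were on the array and 1 was detected, Clec2e (Clr-a). The log2 signal of Clec2e was 8.65, 9.42 and 9.23 in control mice and 8.03, 8.54 and 8.32 in TCE mice. Every TCE mouse was below every control mouse, which held for 10.2% of all detected probes, and TCE mouse 2 was close to control mouse 1. The log2 difference was -0.80 ± 0.24 (SE), with a 95% confidence interval of -1.37 to -0.23 and an adjusted p of 0.160 in limma, so Clec2e did not pass the threshold. The other 8 genes, Clec2g, Clec2i, Clec2l, Klrb1, Klrb1a, Klrb1b, Klrb1c and Klrb1f, were not detected. A further Clec2 gene outside the list, Clec2j, was between 2.98 and 3.76 in the 6 mice and well above background in 0 of them. The Klrb1 probe was well above background in 1 mouse, TCE mouse 1, at 7.97, and was between 2.46 and 3.19 in the other 5 mice. These last probes, for Clec2j and Klrb1, were chosen for mention after their values were seen.

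The start regions of Clec2h and Clec2e are shown because these are the detected Clec2 family members that were lower in every TCE mouse. Clec2h was chosen for its fall, and Clec2e did not pass the threshold. Each run covers 250 bases before to 50 after the annotated gene start in RefSeq, on GRCm38.p6, 5′ to 3′ on the strand of the gene. The capitals mark the longest run that both share, 121 bases. Clec2h lies on the plus strand at chr6:128662135-128662434 and Clec2e on the minus strand at chr6:129100854-129101153.
Clec2h: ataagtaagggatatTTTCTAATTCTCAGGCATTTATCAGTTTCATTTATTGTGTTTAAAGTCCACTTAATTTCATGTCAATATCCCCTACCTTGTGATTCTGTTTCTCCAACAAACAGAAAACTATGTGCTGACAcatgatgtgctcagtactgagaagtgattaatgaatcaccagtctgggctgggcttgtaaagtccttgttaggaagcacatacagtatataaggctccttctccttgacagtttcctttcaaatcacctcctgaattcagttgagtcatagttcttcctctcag
Clec2e: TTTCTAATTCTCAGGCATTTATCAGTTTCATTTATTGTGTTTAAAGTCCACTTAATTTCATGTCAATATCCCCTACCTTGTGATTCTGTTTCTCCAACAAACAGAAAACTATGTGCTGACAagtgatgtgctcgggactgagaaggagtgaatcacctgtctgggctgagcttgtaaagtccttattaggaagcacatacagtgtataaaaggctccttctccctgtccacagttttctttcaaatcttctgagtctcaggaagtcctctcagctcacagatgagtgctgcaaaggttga

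The run in capitals begins 235 bases before the start in Clec2h and 250 bases before it in Clec2e. It was held by 2 of 32544 promoters in the RefSeq table, which are these 2. Aligned to each other, the 2 regions had 230 identical bases over 251 columns (91.6%). The longest run that the Clec2h region shared with the Clec2d region was 8 bases, with Clec2g 7 bases and with Clec2i 9 bases. The letters TATAAA, searched on both strands, stood in the Clec2e region with the first base 46 bases before the start. These exact letters did not occur in the Clec2h region, and 13.569% of all promoters of this length hold them. Variants of these letters were not searched. Between the shared letters acatacag and ggctcc, Clec2h reads tatataa and Clec2e reads tgtataaaa. The nuclear receptor half-site AGGTCA, searched on both strands, occurred 3 times in the Clec2d region and not in the regions of Clec2h and Clec2e, beside 16.249% of all promoters that hold it. The Clec2h region held 0 CG dinucleotides, Clec2e 1 and Clec2d 5, where the median promoter held 7. These are descriptions of sequence only. The 60-base array probes of Clec2h and Clec2e share at most 6 bases in a row.

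All of the 10 genes but Clec4g lie on chromosome 6. By the mm9 positions of the array annotation, the Clec2h probe is at chr6:128626525-128626584. Clec2d lies 0.51 Mb above it, Clec12a 0.69 Mb and Clec7a 0.79 Mb. The Clec4a2, Clec4n, Clec4d and Clec4e probes lie between 5.39 and 5.53 Mb below it, and the Clec4f probe 45.0 Mb below it. Of the 5 detected genes on either side of Clec2h, none was lower by 2-fold. On the lower side Foxm1, a transcription factor of the cell cycle, was higher in TCE mice by 1.76 ± 0.25 (SE) on the log2 scale (limma adjusted p = 0.0282) and was the only one of these 10 neighbours past the threshold. Its control signal was near background, at 4.84 ± 0.07 (SD, n = 3), with 2 of 3 control arrays and all 3 TCE arrays well above background, so that it counted as detected through the TCE mice. Itfg2 differed by 0.29, Fkbp4 by -0.40, Pzp by -0.01 and BC048546 by 0.02. On the upper side Clec2e, 416 kb away, had the largest difference, followed by 2310001H17Rik at -0.77 (limma adjusted p = 0.207). Clec1b differed by -0.26 and Clec9a by -0.24, and neither passed the threshold. The probes of 2310001H17Rik and Clec9a were well above background on 2 of 3 TCE arrays.

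**Figure D2:**
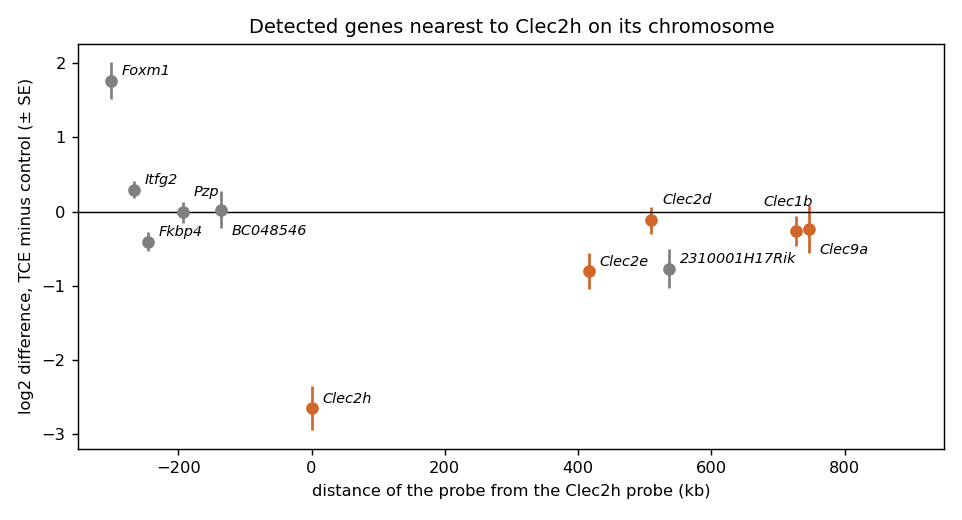
Log2 difference, TCE minus control (vertical axis, with the SE of the fit as bars), of Clec2h and the 5 detected genes on either side against the distance of their probe from the Clec2h probe in kb (horizontal axis), with C-type lectins in orange. Clec2h at -2.65 lies below all of its neighbours, which range from -0.80 for Clec2e to 1.76 for Foxm1.

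The detected genes whose pattern over the 6 arrays was most like that of Clec2h were Slco2a1, a prostaglandin transporter, with a Pearson r of 0.997, Gpc4, a cell surface proteoglycan, with 0.996, and Cyp2c67, a cytochrome P450, with 0.996. Gbp4, an interferon-induced GTPase, followed with 0.993 and Suv39h2, a histone methyltransferase, with 0.992. Their log2 differences were smaller than that of Clec2h, at -1.23 for Slco2a1, -1.07 for Cyp2c67, -0.50 for Suv39h2, -0.48 for Gbp4 and -0.31 for Gpc4. The 6 arrays fall into the 2 groups, and the genes were picked from all detected genes for this likeness, so the r values are descriptions.

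Among the receptors of myeloid cells, Clec4n and Clec7a were detected. The log2 signal of Clec4n was 8.20, 8.03 and 8.28 in control mice and 8.44, 8.42 and 8.59 in TCE mice. Every TCE mouse was above every control mouse. The log2 difference was 0.31 (95% confidence interval 0.02 to 0.60), and with a limma adjusted p of 0.256 Clec4n did not pass the threshold. Clec7a had 8.15, 8.05 and 7.47 in control mice and 7.86, 7.81 and 7.86 in TCE mice. The TCE mice lay close together and within the range of the control mice. The log2 difference of Clec7a was -0.05 (95% confidence interval -0.52 to 0.42, limma adjusted p = 0.928), and within slide 2 it was 0.085. Within slide 2 Clec4n differed by 0.33 and Clec2d by -0.16. The intervals of Clec4n and Clec7a exclude a change of 2-fold.

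Clec4d, Clec4e, Clec4a2 and Clec12a were not detected, so no fold change or test is given for them. Clec4d was well above background in 2 mice, TCE mice 1 and 3. Its log2 signal was 4.71, 3.97 and 5.04 in TCE mice and 3.85, 3.99 and 4.08 in control mice, so TCE mouse 2 lay within the range of the control mice. Clec4e, the partner of Clec4d in one receptor complex, was between 2.47 and 2.93 in control mice and between 2.50 and 2.85 in TCE mice. Clec4a2 was between 2.74 and 2.81 in control mice and between 2.81 and 3.30 in TCE mice. Clec12a was between 2.75 and 2.94 in control mice and between 2.77 and 3.32 in TCE mice. Clec4e, Clec4a2 and Clec12a were well above background on 0 of 6 arrays.

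The listed genes through which these receptors signal were measured beside them. Of 31, all on the array, 19 were detected, and 0 were past the threshold in limma, with 3 at an unadjusted p below 0.05 (19.1% over all detected genes). The median log2 difference was -0.07, with 8 genes higher and 11 lower. It was -0.022 without TCE mouse 1, -0.13 without TCE mouse 2 and -0.040 without TCE mouse 3. The adaptor Fcer1g differed by -0.09, the adaptor Tyrobp by -0.16 and the kinase Syk by -0.13, and Card9 was not detected. The lowest p values belonged to Il1b, a cytokine induced by this pathway (log2 difference -1.45, limma adjusted p = 0.162, well above background on 1 of 3 TCE arrays), the phosphatase Ptpn6 (0.47, adjusted p = 0.184) and the adaptor Hcst (-0.37, adjusted p = 0.207).

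Clec4f and Clec4g were set against the other markers of their cells. In whole liver, fewer cells of a type and less RNA per cell cannot be told apart. The log2 signal of Clec4f was 12.25, 12.36 and 12.22 in control mice and 11.98, 12.21 and 12.26 in TCE mice. TCE mouse 1 was the lowest and TCE mouse 3 lay within the range of the control mice. The log2 difference was -0.12 (95% confidence interval -0.43 to 0.18, limma adjusted p = 0.648). Of 20 Kupffer cell markers 19 were detected, Clec4f included, and 0 were past the threshold in limma, with 2 at an unadjusted p below 0.05 (19.1% over all detected genes). Their median log2 difference was -0.10, with 14 lower and 5 higher. It was 0.0067 without TCE mouse 1, -0.17 without TCE mouse 3 and -0.061 without control mouse 1. The macrophage genes of lowest p were Hmox1, the haem oxygenase (log2 difference 1.03, limma adjusted p = 0.139), the iron exporter Slc40a1 (-0.64, adjusted p = 0.255) and the scavenger receptor Marco (-0.43, adjusted p = 0.455). A second Hmox1 probe differed by -0.09. The summed Kupffer marker signal, on the log2 scale, was 15.76 to 15.85 in control mice and 15.62 to 15.80 in TCE mice.

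Clec4g had a log2 signal of 13.61, 13.38 and 13.42 in control mice and of 12.46, 13.84 and 13.53 in TCE mice. TCE mouse 1 was the lowest and TCE mouse 2 the highest of the 6 mice, so the groups overlapped. The log2 difference was -0.20 (95% confidence interval -1.04 to 0.64, limma adjusted p = 0.811). This interval does not exclude a 2-fold fall, and without TCE mouse 1 the log2 difference was 0.21. Within slide 2 it was -0.13, and that of Clec4f was -0.14. The low value of TCE mouse 1 was shared by the other markers of sinusoidal endothelium. Of 20 markers listed, 19 were on the array and 18 were detected, Clec4g included, and 17 of these were lowest in TCE mouse 1. Relative to the control mean, the median marker was at -0.73 in TCE mouse 1, at -0.09 in TCE mouse 2 and at -0.06 in TCE mouse 3. The summed signal on the log2 scale was 15.39 to 15.47 in control mice and 14.62, 15.48 and 15.41 in TCE mice 1, 2 and 3. The part of this in the Clec4g value was not tested.

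Over both groups, all 18 detected sinusoidal endothelial markers were lower in TCE mice, with a median log2 difference of -0.24, but 0 were past the threshold in limma and 0 had an unadjusted p below 0.05 (19.1% over all detected genes). Without TCE mouse 1 the median was -0.017, with 8 higher and 10 lower, and it was -0.41 without TCE mouse 2 and -0.38 without TCE mouse 3. The scavenger receptors Stab2 (-0.54, limma adjusted p = 0.345) and Stab1 (-0.40, adjusted p = 0.354) and the nuclease Dnase1l3 (-0.42, adjusted p = 0.308) had the lowest p values. Another Stab2 probe differed by 0.05. Clec2h was also lowest in TCE mouse 1, at 5.89, and without that mouse its log2 difference was -2.35.

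**Figure D3:**
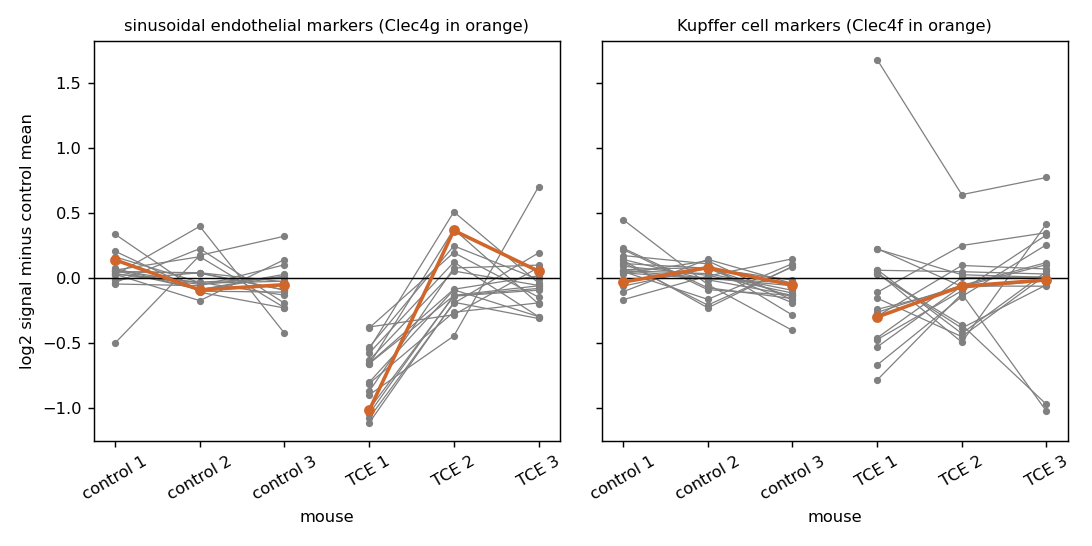
Log2 signal minus the control mean (vertical axis) of each detected marker of sinusoidal endothelium (left) and of Kupffer cells (right) in each mouse (horizontal axis), with lines joining the values of 1 gene within a group, Clec4g and Clec4f in orange and the other markers in grey. In the left panel 17 of 18 markers are lowest in TCE mouse 1, where Clec4g is at 12.46 on the log2 scale.

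Markers of other cells were read for the same reason. Of 22 monocyte and neutrophil markers 15 were detected, 11 higher and 4 lower, with a median log2 difference of 0.18 that was 0.06 without TCE mouse 3, 0.28 without TCE mouse 1 and 0.32 without TCE mouse 2. Their summed log2 signal was 14.14 to 14.97 in control mice and 14.83 to 15.49 in TCE mice. Most of this sum in every mouse came from the Csf3r probe, at 13.32 to 14.59 in control mice and 14.12 to 14.76 in TCE mice. The genes of lowest p were Lcn2, lipocalin 2, which hepatocytes also make (log2 difference 3.50, limma adjusted p = 0.0752), S100a8, a neutrophil calcium-binding protein (1.19, adjusted p = 0.0886), and Plac8 (0.39, adjusted p = 0.183). These were all higher in TCE mice. The 4 lower markers were Lyz1 (-0.91, limma adjusted p = 0.206), Lyz2 (-0.96), Chi3l3 (-0.78) and Ly6g (-0.02). Of 14 dendritic cell markers 7 were detected, with a median of -0.17. It was -0.052 without control mouse 1, -0.059 without control mouse 2 or TCE mouse 1 and -0.069 without TCE mouse 2. The lowest p belonged to Bst2 (0.53, adjusted p = 0.121), Cd74 (-0.19, adjusted p = 0.689) and Batf3 (-0.17, adjusted p = 0.696). Of 18 T, NK and B cell markers 6 were detected, with a median of -0.12. It was -0.013 without TCE mouse 2, -0.21 without TCE mouse 3 and -0.074 without control mouse 3. The lowest p belonged to Cd3e (-0.63, adjusted p = 0.275), Cd4 (-0.93, adjusted p = 0.279) and Cd79a (0.40, adjusted p = 0.498).

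Hepatocyte markers showed that the tissue was liver, with 17 of 18 on the array and all 17 detected. Their median log2 difference was -0.06, with 7 higher and 10 lower. It turned to 0.031, with 9 higher and 8 lower, without TCE mouse 2, and was -0.017 without control mouse 1 and -0.039 without control mouse 2. The lowest p values belonged to Glul, glutamine synthetase (-0.68, limma adjusted p = 0.074), Hal, histidine ammonia lyase (-1.20, adjusted p = 0.114), and Apoa1, an apolipoprotein (-0.31, adjusted p = 0.215). The summed hepatocyte signal was 21.50 to 21.60 in control mice and 21.47 to 21.58 in TCE mice. In the 6 cell type lists 0 genes were past the threshold in limma by their brightest detected probe, and 1 of 2 detected probes of Siglech, a marker of plasmacytoid dendritic cells, was past it at -1.03. Unadjusted p values below 0.05 were found for 4 monocyte and neutrophil, 1 dendritic, 1 T, NK and B cell and 4 hepatocyte markers, that is of 15, 7, 6 and 17 detected, beside 19.1% over all detected genes.

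Of 56 other C-type lectins, all on the array, 25 were detected, and 0 were past the threshold in limma, with 5 at an unadjusted p below 0.05 (19.1% over all detected genes). Their median log2 difference was -0.09, with 8 higher and 17 lower. It was -0.055 without TCE mouse 1, -0.14 without TCE mouse 2 and -0.059 without control mouse 2. The asialoglycoprotein receptor subunits of hepatocytes, Asgr1 and Asgr2, differed by -0.04 and -0.09, and the secreted mannose-binding lectins Mbl1 and Mbl2 by -0.08 and 0.03. The macrophage and endothelial mannose receptor Mrc1 differed by -0.23 and was lowest in TCE mouse 1, at 9.63 beside 10.41 to 10.60 in the other 5 mice. Clec10a, a galactose-type lectin of macrophages and dendritic cells, differed by 0.35 and was well above background on 2 of 3 control arrays. Clec1b, the platelet and sinusoidal endothelial receptor for podoplanin, had 3 detected probes that ranged from -0.79 to -0.22. The lowest p values belonged to Clec4a1, a myeloid receptor of the DCIR group that lies near Clec4a2 (0.43, limma adjusted p = 0.162, all TCE mice above all control mice), the collectin Colec10 (-0.41, adjusted p = 0.218, all TCE mice below all control mice) and the surfactant protein Sftpa1 (1.29, adjusted p = 0.239, well above background on 2 of 3 control arrays).

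**Figure D4:**
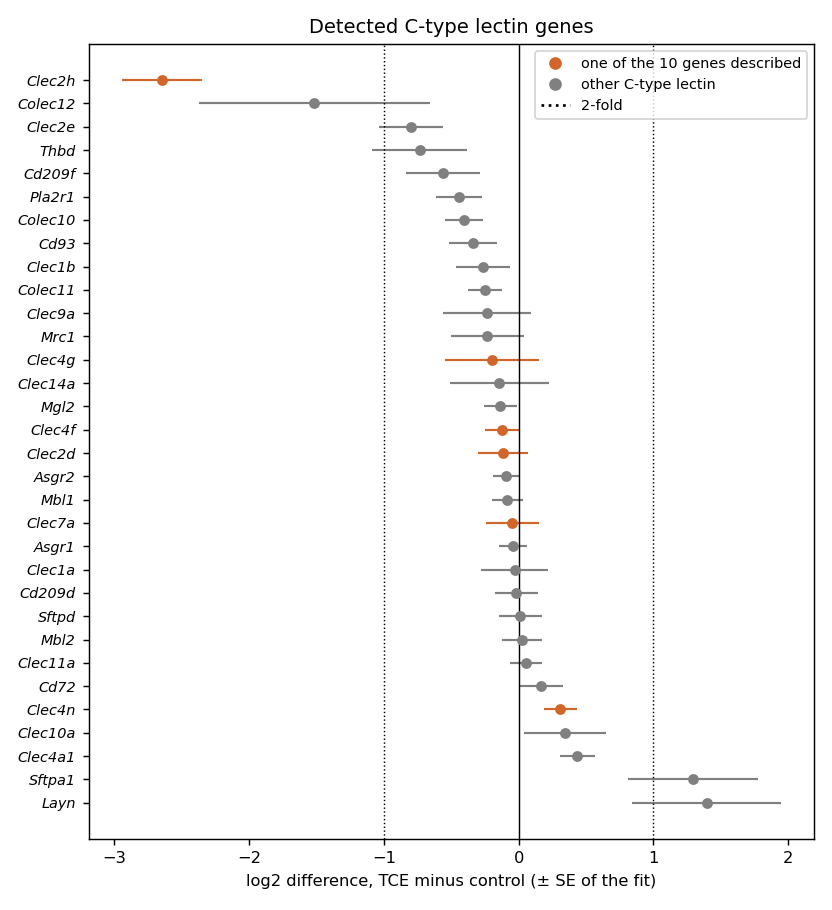
Log2 difference, TCE minus control, with the SE of the fit as bars (horizontal axis) for each detected C-type lectin gene (vertical axis), the 6 detected genes of the set in orange, the other C-type lectins in grey and dotted lines at a 2-fold change. Clec2h at -2.65 is the lowest, and the other points outside the dotted lines, Colec12 at -1.52, Sftpa1 at 1.29 and Layn at 1.40, did not pass the threshold. Colec12 was well above background on 1 of 3 TCE arrays. Layn was well above background on 0 of 3 control arrays and all 3 TCE arrays, so it counted as detected through the TCE mice. With control signals of Layn raised at least to the lowest signal well above background of their array, TCE mice were 1.59-fold higher. This value carries no sampling error. The 95% confidence interval of the fitted log2 difference of Layn was 0.06 to 2.73 (limma adjusted p = 0.263).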

How the data were processed

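Total liver RNA of 3 control and 3 TCE mice was labelled with 1 colour and hybridised to 1 array per mouse. The authors extracted the spots with Agilent Feature Extraction 10.7.1.1, whose deposited processed signal is an intensity after background subtraction and correction of trends within the array. They also deposited the mean quantile-normalized log2 values of each group, which served as an alternative. The array annotation places the probes on mm9.

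Controls and outlier spots (123 to 189 per array) were left out of 62976 spots. Intensities were log2 transformed without a pseudocount. Replicate spots were averaged, and arrays were quantile normalized. The detected probes entered 1 limma model (version 3.58.1, under R 4.3.3) with group as factor and moderated two-sided tests, with Benjamini-Hochberg adjustment over all 22731. No fitted p is given for Clec2h. The steps were tested on simulated data. In gene lists the brightest detected probe stood for a gene.

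The 10 genes and the lists were chosen with earlier results of these data known. Named were all 10 genes, detected Clec2 and Klrb1 relatives, up to 6 list members past the threshold or else the 3 of lowest p, a few fixed lectins and adaptors, and the 5 genes most like Clec2h. Other genes were chosen after their values were seen. Alternatives covered scaling, background, filters, a block for slide or for replicate number, weighting of arrays, other tests and leaving out each mouse, with the marker list medians added after seeing the data. Promoters are from RefSeq (GRCm38.p6), and 9 of 10 genes had one. The number of arrays limits the precision, and nothing says whether the spread between mice holds technical error.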

Additional observations from a re-analysis of the deposited data

How the results depend on the processing

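The fall of Clec2h kept its direction under all 13 alternatives, from -2.92 with array weights to -1.96 with normexp. Not all of these are separate checks, and Clec2h was chosen for this fall. Its groups did not overlap, so leaving out 1 mouse could not turn the direction. Control mouse 1 was alone on slide 1, so slide as a block and leaving out that mouse gave the same difference, -2.58. The replicate block left the difference of the main fit, -2.65, unchanged. The count of the 10 genes past the threshold rests on Clec2h, the gene that chose the set, so it is not given. No other gene of the 10 passed in the main fit or under any alternative. Of the 22731 detected probes 321 passed in limma, and of all 55681 probes, without a filter on dim probes, 96 passed. Of the detected probes, 63 passed with the replicate block, 177 with slide as a block, 594 by the methods' t-test unadjusted, 35 by it after Benjamini-Hochberg adjustment, and 126 to 272 without 1 mouse. Of the C-type lectin relatives, 0 to 1 passed without 1 mouse (Sftpa1 without TCE mouse 3) and 0 otherwise. Sftpa1 was well above background on 2 of 3 control arrays and all 3 TCE arrays, so it counted as detected through the TCE mice. Clec4f (-0.20 to -0.04) and Clec4n (0.24 to 0.36) kept their direction. The groups of Clec4n did not overlap, so leaving out 1 mouse could not turn its direction. Clec7a was at 0.085 with slide as a block. Without 1 mouse, Clec2d ranged from -0.30 to 0.021 (above 0 without TCE mouse 3), Clec4g from -0.48 to 0.21 (above 0 without TCE mouse 1) and Clec7a from -0.26 to 0.085 (above 0 without control mouse 1 or control mouse 2). The Kupffer cell median ranged likewise from -0.17 to 0.0067 (above 0 without TCE mouse 1) and the hepatocyte median from -0.063 to 0.031 (above 0 without TCE mouse 2). The cause of these changes was not tested. The replicate block pairs mice by their number. Mice of the same number did not deviate together (r 0.09, 0.007 and -0.09). Whether the number stands for a shared step is not given. Signals near background limited Clec4d, Clec4e, Clec4a2 and Clec12a.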
